A study of Saccharomyces cerevisiae with 18 samples.

Results

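The genes of telomerase and of the proteins that bind yeast telomeres were compared between wild-type (WT) Saccharomyces cerevisiae and ten1-31, a temperature-sensitive mutant of TEN1. The 10 genes were listed by name, at a time when earlier results of these data were known. They were EST1, EST2 and EST3 for telomerase, RAP1, RIF1 and RIF2 for the protein layer on the duplex repeats, YKU70 and YKU80 for the Ku heterodimer, TEL1 for a kinase and PIF1 for a helicase. All 10 had a row among the 5143 rows of the count table, and all 10 passed the filter on low counts. The measurement was RNA-seq of total RNA depleted of ribosomal RNA, in 3 libraries per genotype. Cultures of both genotypes were kept overnight at 25 °C, diluted and shifted to 34 °C for almost 5 h, so no library comes from cells held at the lower temperature throughout. The strain background and the number of mutant clones are not given in the sources used here, and the labels do not say whether the libraries of a genotype came from separate cultures, so p-values measure the spread between these libraries only. The other 12 samples of the series, ChIP-seq and input DNA, were not analysed here.

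Telomerase copies an RNA template onto chromosome ends through its reverse transcriptase subunit Est2. Est1 brings the enzyme to the end by binding Cdc13, a partner of Stn1 and Ten1 in the CST complex that caps the single-stranded overhang. Rap1 coats the duplex repeats, and through Rif1 and Rif2 it limits how far an end is extended, while Ku and the Tel1 kinase favour extension and Pif1 strips telomerase from the end.

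Library totals lay between 10469608 and 14442999 counts. The transcript of the mutated gene itself differed between the genotypes: TEN1 (YLR010C) averaged 8.85 ± 1.57 CPM (SD, n = 3) in WT against 30.1 ± 0.63 CPM (SD, n = 3) in the mutant, with no overlap of libraries. CPM here is a count relative to the TMM-scaled library size, on a common scale for all libraries. The ten1-31 libraries also stood apart on 3 chromosomes. Relative to the WT mean, the median log2 CPM of the 236 rows of chromosome VIII was 0.60, 0.45 and -6e-04 in ten1-31 replicates 1, 2 and 3, that of the 177 rows of chromosome IX was 0.35, 0.27 and 0.54, and that of the 292 rows of chromosome XI was 0.38, 0.44 and 0.46. The medians of the other 13 chromosomes stayed between -0.09 and 0.05 in ten1-31. On all 16 chromosomes the WT libraries were within 0.04 of their mean. Of the 10 genes, EST3 lies on chromosome IX and none lies on VIII or XI. Chromosome copy number was not tested.

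**Figure D1:**
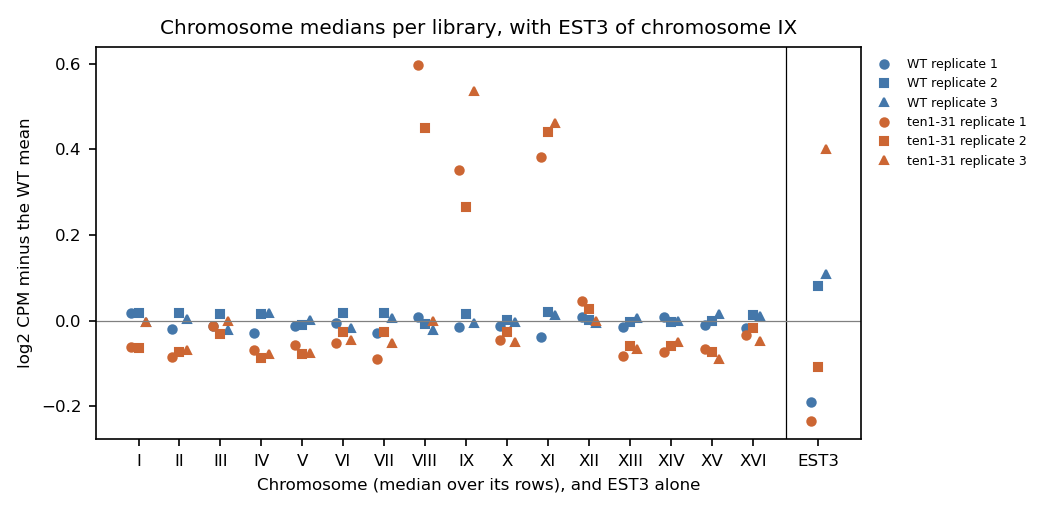
Median over the rows of each chromosome of log2 CPM minus the WT mean (y axis) in each library, by chromosome (x axis), with EST3 alone at the right; colours give the genotype and marker shapes the replicate. Chromosome IX lies at 0.35, 0.27 and 0.54 in ten1-31 replicates 1, 2 and 3, and EST3 at -0.23, -0.11 and 0.40 in the same libraries.

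In ten1-31, transcripts of EST1, RIF1, RIF2 and YKU80 were higher and that of EST2 was lower, while EST3, RAP1, YKU70, TEL1 and PIF1 did not pass the test. All of the differences that passed were small, from 1.17-fold for YKU80 to 1.49-fold for EST1. In edgeR's quasi-likelihood test, fitted over 5133 rows with Benjamini-Hochberg adjustment and a threshold of 0.05, 4 of the 10 genes were called higher and 1 was called lower. The same test called 50.5% of all rows, 24.3% as higher and 26.2% as lower, so the share of these genes called is close to that of the transcriptome. For the 5 genes called, and for none of the others, the genotypes did not overlap in CPM, which holds for 60.5% of all rows. The median log2 fold change of the 10 genes was 0.06, beside -0.0038 for all rows. RNA per cell and the share of cells in a given state cannot be told apart in these bulk libraries, and all values are relative to the other transcripts.

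**Figure D2:**
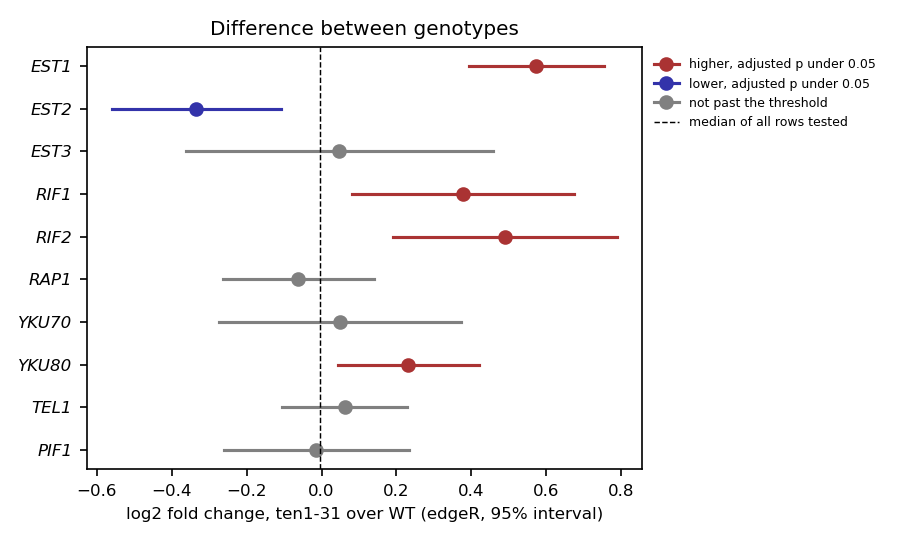
Log2 fold change of ten1-31 over WT (x axis) for each of the 10 genes, with its 95% interval from the edgeR fit; colour marks genes past an adjusted p of 0.05 and the dashed line is the median of all rows tested. EST1 at 0.57 and EST2 at -0.33 lie on opposite sides of the line.

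The subunits of telomerase did not share a direction. EST1 (YLR233C; chromosome XII, 607425 to 609524 in RefSeq R64) encodes the recruitment subunit. It was at 24.5, 24.1 and 24.2 CPM in WT replicates 1, 2 and 3 and at 37.1, 37.8 and 33.7 CPM in ten1-31 replicates 1, 2 and 3. All mutant libraries lay above all WT libraries. The log2 fold change was 0.57 ± 0.08 (SE; edgeR, adjusted p = 0.00083), and the call held in each of the 16 alternative fits, with edgeR, DESeq2 and limma-voom adjusted p-values up to 0.00687. The WT libraries agreed more closely than counting error gives on average, with a coefficient of variation of 0.889% where their counts of 278 to 336 would give 5.68%, so their SD understates the error.

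EST2 (YLR318W; chromosome XII, 766542 to 769196), the catalytic reverse transcriptase, was at 35.0, 34.7 and 40.9 CPM in WT and at 31.4, 27.1 and 29.2 CPM in ten1-31. All mutant libraries were below the WT libraries, with the nearest values at 31.4 and 34.7 CPM. EST2 fell by 0.33 on the log2 scale, with a standard error of 0.10 (edgeR, adjusted p = 0.0227). This call did not hold in every fit that left out a library. The edgeR adjusted p was 0.0784 without WT replicate 3, 0.0866 without ten1-31 replicate 2 and 0.0540 without ten1-31 replicate 3. The log2 fold change in these fits was -0.25, -0.28 and -0.34, beside -0.33 with all 6 libraries. They also called fewer rows in all, 1887, 1824 and 2238 against 2591. The call of EST2 was also lost when libraries were scaled by their totals only (log2 fold change -0.25; edgeR, adjusted p = 0.0701; 0.0152 to 0.0866 over all alternatives).

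EST3 (YIL009C-A; chromosome IX, 335666 to 336212) encodes a small regulatory subunit whose translation needs a programmed ribosomal frameshift. Its levels were 17.1, 20.7 and 21.1 CPM in WT and 16.6, 18.1 and 25.8 CPM in ten1-31. The genotypes overlapped, and ten1-31 replicate 3 was the highest of all 6 libraries. The log2 fold change was 0.05, with a 95% interval of -0.36 to 0.46 (edgeR, adjusted p = 0.845), and it was -0.19 without ten1-31 replicate 3. Subtracting the chromosome IX median of the same library from the deviation of EST3 from its WT mean left -0.17, 0.06 and 0.12 in WT and -0.59, -0.37 and -0.13 in ten1-31. On that scale the mutant libraries were lower on average but still overlapped WT replicate 1. When each library was scaled by the median of its own chromosome, an alternative chosen after seeing the data, the log2 fold change of EST3 was -0.35 (edgeR, adjusted p = 0.0593; 0.0593 to 0.991 over all alternatives).

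Ratios of subunits within a library do not depend on the scaling between libraries. Per kb of gene length, EST1 transcripts stood to EST2 transcripts at a log2 ratio of -0.17, -0.19 and -0.42 in WT replicates 1, 2 and 3 and at 0.58, 0.82 and 0.54 in ten1-31 replicates 1, 2 and 3. In counts per kb, EST1 therefore stood below EST2 in each WT library and above it in each mutant library. Whether reads cover the 2 genes equally well was not tested. The geometric mean ratio was 0.835 in WT and 1.57 in ten1-31, a difference of 0.91 on the log2 scale (two-sided exact permutation test, p = 0.1, which is the lowest value 3 libraries against 3 can give, and 0.5 after Benjamini-Hochberg adjustment over the 5 ratios computed). This was the one pair of the 5 whose genotypes did not overlap.

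The ratio of EST3 to EST2 was 2.58 in WT and 3.29 in ten1-31, and that of PIF1 to EST2 was 2.35 in WT and 2.95 in ten1-31. Both overlapped between genotypes, with exact permutation p-values of 0.2 and 0.3. RIF2 to RIF1 differed by 0.09 on the log2 scale (exact permutation p = 0.8), and by -0.07 without WT replicate 1. YKU70 to YKU80 differed by -0.17 (exact permutation p = 0.4), with WT replicate 1 at -0.44 and the other WT libraries at 0.16 and 0.21.

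**Figure D3:**
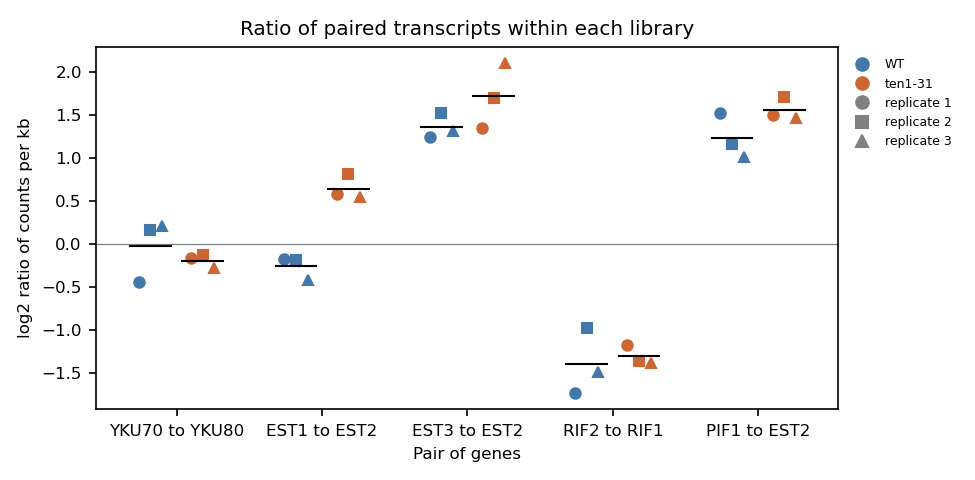
Log2 ratio of counts per kb (y axis) for 5 pairs of genes (x axis) in each library; horizontal lines are group means. The EST1 to EST2 ratio lies between -0.42 and -0.17 in WT and between 0.54 and 0.82 in ten1-31, and the other pairs overlap.

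In the Rap1 group, the 2 Rap1-bound regulators were higher in the mutant and RAP1 did not pass the test. RIF2 (YLR453C; chromosome XII, 1041799 to 1042986), which with Rif1 restrains telomerase, was at 13.3, 15.5 and 12.3 CPM in WT and at 21.8, 18.2 and 17.7 CPM in ten1-31. Every mutant library lay above every WT library. The log2 fold change was 0.49 ± 0.13 (SE; edgeR, adjusted p = 0.0154). It was 0.42 without WT replicate 3 and 0.38 without ten1-31 replicate 1, where the call was lost (edgeR, adjusted p = 0.0652 and 0.0596; 0.00576 to 0.0652 over all alternatives).

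RIF1 (YBR275C; chromosome II, 751356 to 757106), which also acts in replication timing, was at 213, 148 and 167 CPM in WT and at 238, 226 and 223 CPM in ten1-31. The genotypes did not overlap, but WT replicate 1 was within 10 CPM of the lowest mutant library. The log2 fold change was 0.38 ± 0.13 (SE; edgeR, adjusted p = 0.0403). The call held without WT replicate 1, where the log2 fold change was 0.54, and was lost in each of the other 5 fits that left out a library, at 0.27 without WT replicate 2, 0.34 without WT replicate 3 and 0.34, 0.38 and 0.38 without ten1-31 replicates 1, 2 and 3 (edgeR, adjusted p from 0.0777 to 0.138). With upper quartile scaling it was 0.33 (edgeR, adjusted p = 0.0512; 0.00119 to 0.138 over all alternatives).

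RAP1 (YNL216W; chromosome XIV, 241689 to 244172), which also activates ribosomal protein genes, was at 178, 146 and 150 CPM in WT and at 151, 151 and 152 CPM in ten1-31. The mutant libraries fell inside the WT range. The log2 fold change was -0.06, with a 95% interval of -0.26 to 0.14 (edgeR, adjusted p = 0.578). The mutant values were again closer to each other than counting error alone would give on average, at a coefficient of variation of 0.222% against 2.29%.

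The Ku subunits bind DNA ends as a pair, and Yku80 also binds the telomerase RNA. YKU80 (YMR106C; chromosome XIII, 478301 to 480190) was at 43.2, 41.9 and 36.9 CPM in WT and at 48.5, 47.9 and 47.0 CPM in ten1-31. The mutant libraries were all above the WT libraries, by a gap smaller than the WT range. In ten1-31 the libraries were closer to each other than counting error gives on average, at a coefficient of variation of 1.54% against 4.09%. The difference of 0.23 ± 0.08 (SE) on the log2 scale was near the threshold (edgeR, adjusted p = 0.0449). It stayed past the threshold without WT replicate 1 (0.28) and was not past it without WT replicate 2 or 3 (0.25 and 0.17) or without ten1-31 replicate 1, 2 or 3 (0.22, 0.23 and 0.23; edgeR, adjusted p from 0.0544 to 0.152). DESeq2 (0.24, adjusted p = 0.0531) and upper quartile scaling in edgeR (0.18, adjusted p = 0.0881) did not call it, with adjusted p-values from 0.0144 to 0.152 over all alternatives.

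YKU70 (YMR284W; chromosome XIII, 838187 to 839995) was at 30.6, 44.9 and 40.9 CPM in WT and at 41.4, 41.8 and 37.0 CPM in ten1-31. WT replicate 1 was the lowest library and WT replicate 2 the highest, with the mutant libraries between them. The log2 fold change was 0.05 with a 95% interval of -0.27 to 0.37 (edgeR, adjusted p = 0.791), and -0.10 without WT replicate 1. The ratio of YKU70 to YKU80 overlapped between the genotypes. Its exact permutation p cannot go below 0.1 with 3 libraries against 3, so it cannot decide whether the Ku genes differ in their response.

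TEL1 (YBL088C; chromosome II, 51019 to 59382), the yeast ATM kinase that marks short telomeres for extension, was at 234, 234 and 219 CPM in WT and at 249, 244 and 225 CPM in ten1-31. The genotypes overlapped, and replicate 3 was the lowest library in each. Its log2 fold change was 0.06, with a 95% interval of -0.10 to 0.23 (edgeR, adjusted p = 0.498). PIF1 (YML061C; chromosome XIII, 148953 to 151532), a helicase that also acts in mitochondria, was at 97.6, 75.9 and 80.1 CPM in WT and at 86.5, 86.2 and 78.6 CPM in ten1-31. The mutant values lay within the WT range, and the log2 fold change was -0.01 with a 95% interval of -0.26 to 0.23 (edgeR, adjusted p = 0.924). WT replicate 1 was the highest WT library for RIF1, RAP1, PIF1, YKU80 and, by a small margin, EST1. It was the lowest for YKU70 and EST3.

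**Figure D4:**
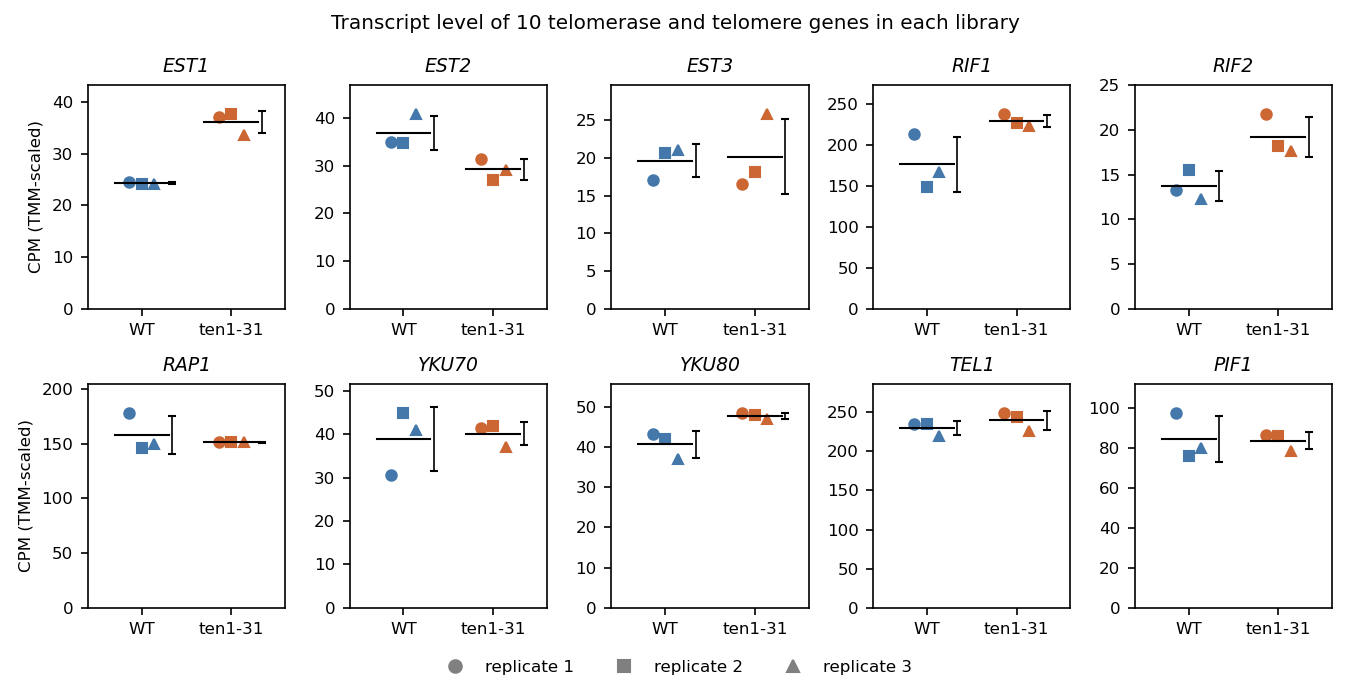
CPM scaled by TMM (y axis, from 0) in each library of WT and ten1-31 (x axis) for the 10 genes, with markers for the replicates, a line for the mean and a bar for the SD beside it. EST1 lies between 24.1 and 24.5 CPM in WT and between 33.7 and 37.8 CPM in ten1-31, while EST3 spans 16.6 to 25.8 CPM within ten1-31.

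Levels of different genes were compared as CPM per kb of RefSeq gene length. In WT, RAP1 was the most abundant at 63.6 ± 7.0 CPM per kb (SD, n = 3), at the 54th percentile of the 5094 rows with a length. EST3 at 35.9, PIF1 at 32.8, RIF1 at 30.6 and TEL1 at 27.4 CPM per kb followed, and among these 4 each gene overlapped the next in its range over libraries. YKU80 at 21.5 and YKU70 at 21.4 CPM per kb also overlapped each other. The lowest were EST2 at 13.9, EST1 at 11.6 and RIF2 at 11.5 CPM per kb, all at or under the 6.44th percentile; EST1 and RIF2 overlapped, and EST2 lay above EST1 but met RIF2 in range, at 13.07 CPM per kb for its lowest library and 13.08 for the highest of RIF2.

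In ten1-31 the order at the low end was another one, with EST1 at 17.2 ± 1.05, RIF2 at 16.2 ± 1.90 and EST2 at 11 ± 0.81 CPM per kb (SD, n = 3 each). EST2 was thus the least abundant of the 10 in each mutant library, and EST1 and RIF2 still overlapped. RIF1 at 39.8 CPM per kb moved above EST3 and PIF1, although its range overlapped that of EST3. RAP1 remained the highest at 61.0 ± 0.14 CPM per kb.

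Beyond these 10, a list of 36 other genes with a role at telomeres was read from the same fit. Of these genes 12 were higher, 11 were lower and 13 did not pass the test, with a median log2 fold change of 0.10. The balance moved with the scaling, to 16 higher and 8 lower with library size only and to 10 higher and 12 lower with upper quartile scaling. The share called, 23 of 36, stands beside 50.5% of all rows tested. The CST genes all differed, CDC13 by 0.45, STN1 by -0.42 and TEN1 by 1.77 on the log2 scale. Without the 4 listed genes on chromosomes VIII, IX and XI, 10 of 32 were higher and 11 were lower, with a median of 0.02.

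Of the 6 genes for the MRX nuclease complex, its cofactor and the Mec1 branch, 3 were called higher and the other 3 did not pass the test, beside 50.5% of all rows called and 24.3% called higher. MEC1, the checkpoint kinase related to TEL1, averaged 153 ± 14 CPM in WT against 251 ± 11.5 CPM in the mutant (SD, n = 3 each; log2 fold change 0.71 ± 0.09 SE; edgeR, adjusted p = 0.000518). RAD50 (0.70) and XRS2 (0.20) were also higher, while MRE11, which forms the complex with them, averaged 47.6 CPM in WT against 44.5 CPM in the mutant and did not pass the test (edgeR, adjusted p = 0.349). Of the 5 helicase and recombination genes reported, 2 were called higher and the other 3 did not pass the test, again beside 24.3% of all rows called higher. SGS1, a RecQ-family helicase, had the larger rise, from 130 ± 16.9 to 187 ± 4.24 CPM (SD, n = 3 each; log2 fold change 0.52 ± 0.10 SE; edgeR, adjusted p = 0.00335), and RAD52 followed at 0.42.

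Of the 8 genes for the maturation and transport of the telomerase RNA, 4 were called lower and 1 was called higher, beside 26.2% and 24.3% of all rows. The protein subunits that telomerase shares with RNases P and MRP were all lower, POP7 by -0.57 (edgeR, adjusted p = 0.00269), POP6 by -0.32 and POP1 by -0.26 on the log2 scale. EBS1, a paralog of EST1, was lower too (-0.34; edgeR, adjusted p = 0.00382), opposite in direction to EST1. CRM1, the nuclear export receptor, was the one gene of this group called higher, from 514 ± 4.33 CPM to 706 ± 13 CPM (SD, n = 3 each; log2 fold change 0.46 ± 0.06 SE; edgeR, adjusted p = 0.000946).

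Of the 5 telomeric chromatin genes, SIR3 (0.43) and SIR4 (0.25) rose and REB1 (-0.55), TBF1 (-0.48) and SIR2 (-0.26) fell, where 50.5% of all rows were called. Reb1 and Tbf1 bind DNA sites in subtelomeric regions and at many promoters, and their REB1 and TBF1 transcripts had edgeR adjusted p-values of 0.000659 and 0.0109. In the KEOPS complex, which was found through its effect on telomere capping and modifies tRNA, BUD32 (-0.60), GON7 (-0.47) and CGI121 (-0.26) fell and PCC1 rose (0.95). PCC1 lies on chromosome XI, and scaled by its chromosome median it was at 0.52 (edgeR, adjusted p = 0.00123), while KAE1 on the same chromosome went from 0.17 (edgeR, adjusted p = 0.0504) to -0.26 (edgeR, adjusted p = 0.00801).

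Nonsense-mediated decay lowers the level of several telomerase and CST transcripts in budding yeast. Of its 4 genes on the list, NMD2 alone passed the test, where 50.5% of all rows did, at 0.63 ± 0.16 on the log2 scale (SE; edgeR, adjusted p = 0.0139). NMD2 lies on chromosome VIII. Its levels were 187, 165 and 173 CPM in WT replicates 1, 2 and 3. In ten1-31 replicates 1, 2 and 3 they were 325, 290 and 201 CPM. Scaled by its chromosome median, NMD2 was at 0.25 on the log2 scale (edgeR, adjusted p = 0.0202). NAM7, UPF3 and XRN1 had log2 fold changes of -0.21, -0.17 and 0.11, none past the threshold.

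**Figure D5:**
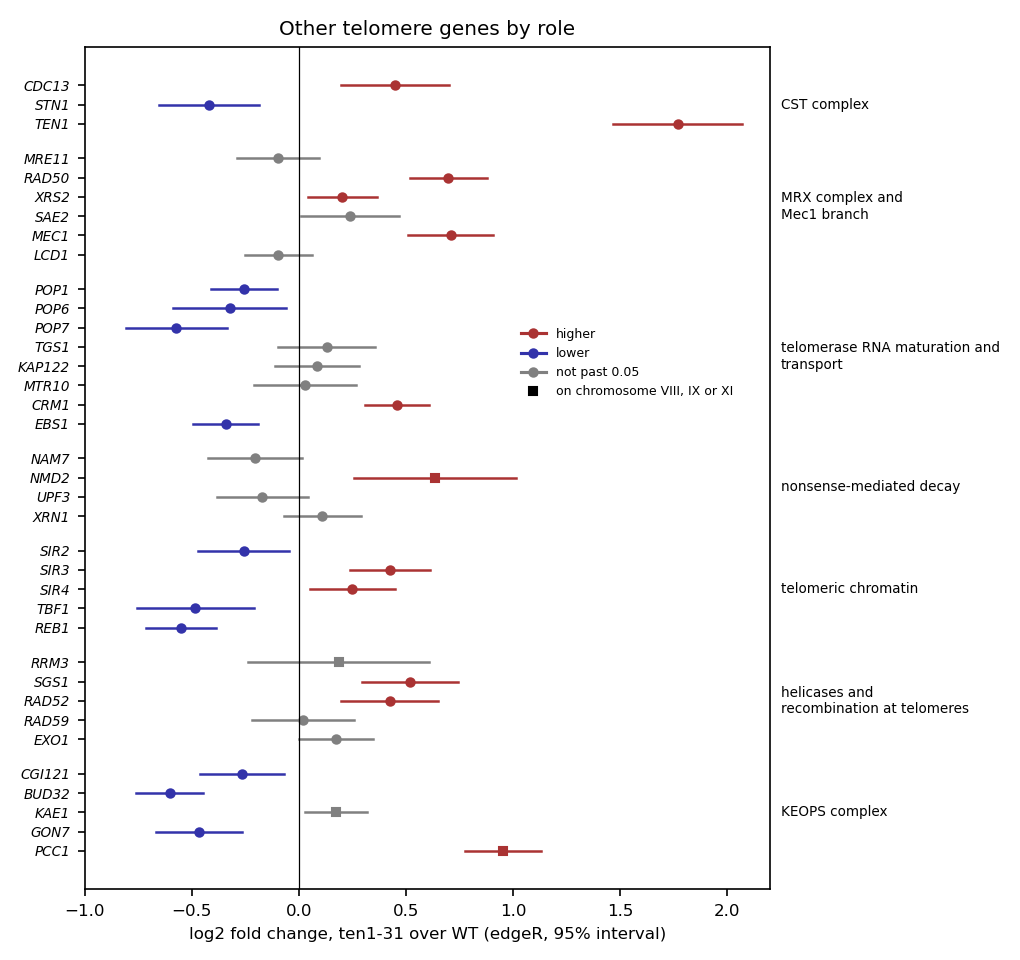
Log2 fold change of ten1-31 over WT (x axis) with its 95% edgeR interval for the 36 other telomere genes (y axis), grouped by role; colour marks the call and squares mark genes on chromosome VIII, IX or XI. TEN1 at 1.77 is the largest rise, and BUD32 at -0.60 the largest fall.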

How the data were processed

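The authors deposited 1 table of read counts per gene row, with a column for each of the 6 RNA-seq libraries. The submitters' processing notes name FastQC, cutadapt, Trimmomatic, TopHat2, Bowtie2 and featureCounts and the genome build R64 (sacCer3). The strand setting and any row filter are not given in the sources used here, so reads of antisense or near-identical genes may be shared. Positions and lengths come from RefSeq R64, in which 0 of the 10 genes overlap another gene.

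Counts were fitted for all rows in edgeR 4.0.16 (R 4.3.3) by its quasi-likelihood test, with TMM scaling, filterByExpr (minimum count 10, minimum total 15, leaving 5133 rows) and genotype as the only term. Standard errors are the log2 fold change divided by the square root of F. Alternatives used DESeq2 1.42.0, limma-voom (limma 3.58.1), other scalings and filters, a replicate block, and each library left out. The procedure was tested on simulated data with larger changes than those of the 10 genes and without chromosome shifts. That run does not bear on calls of small changes. No pair of replicates agreed within sampling noise (chi-square per degree of freedom at least 5.33).

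The members, the telomere list and the tests were chosen with earlier results of these data known. All 10 members are named; of the list, the largest called rise and fall per group and the CST genes were named by rule, and the other listed genes after their values were seen. A listed gene was left out and is not reported here.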

Additional observations from a re-analysis of the deposited data

How the results depend on the processing

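The direction of EST1, EST2, RIF1, RIF2, YKU80 and TEL1 held in each of the 16 alternative fits. EST1 ran from 0.54 to 0.61, EST2 from -0.39 to -0.25, RIF1 from 0.27 to 0.54, RIF2 from 0.38 to 0.59, YKU80 from 0.17 to 0.28 and TEL1 from 0.026 to 0.092 when each of the 6 libraries was left out in turn. Calls were lost for EST2 with library size only (-0.25), for RIF1 with upper quartile scaling (0.33), and for YKU80 with upper quartile scaling (0.18) and DESeq2 (0.24). EST3, RAP1, YKU70 and PIF1, which were not called, changed sign between fits. EST3 was at -0.0032 with upper quartile scaling and had a leave-one-out range of -0.19 to 0.17. With the chromosome-median offset EST3 was at -0.35 (edgeR, adjusted p = 0.0593), which is not close to 0. The others changed sign around 0: RAP1 (library size only 0.020, chromosome-median offset 0.00052, range -0.12 to 0.033), YKU70 (upper quartile -0.0032, range -0.097 to 0.17) and PIF1 (library size only 0.069, chromosome-median offset 0.051, without the rows of chromosomes VIII, IX and XI 0.030, range -0.086 to 0.10). Library size only moved the log2 fold changes of all rows by a median of 0.08 and upper quartile scaling by -0.05. The chromosome-median offset moved them by 0.056. The fit without the rows of chromosomes VIII, IX and XI moved those it kept by 0.045. With the offset, 14 of the 36 listed genes were higher and 9 were lower. The share of calls that were higher was 48.2% with TMM, 60.4% with library size only and 40.7% with upper quartile scaling.

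Leaving out a library left from 1 to 4 of the 10 genes called higher and from 0 to 1 lower. It was 2 higher with upper quartile scaling, 0 lower with library size only, and 1 higher and 0 lower at an adjusted p under 0.01, where 1660 rows in all were called (1824 to 2974 without a library) and 5 of the 36 listed genes were lower. Without a library, 9 to 15 listed genes were higher and 7 to 10 lower. The ratio differences ranged from -0.38 to -0.055 for YKU70 to YKU80, 0.82 to 0.96 for EST1 to EST2, 0.16 to 0.53 for EST3 to EST2, -0.072 to 0.30 for RIF2 to RIF1 and 0.22 to 0.47 for PIF1 to EST2. Why calls and values moved between these fits was not tested.

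No label pairs libraries of the 2 genotypes. Across rows, the residuals of libraries with the same number correlated at 0.20, 0.21 and 0.09, so not all exceeded 0.1 and no pairing was assumed. With a replicate block, EST1 was at 0.57, 4 members were called higher and 1 lower, and 2630 rows were called in all; each replicate correlated best with its own number, which is a hint from the data only. The chromosome-median offset and the fit without 3 chromosomes were chosen after seeing the data, and both kept 4 higher and 1 lower. Counting error was largest for EST3 and RIF2, with 161 to 363 counts per library. Their spread between libraries was larger still in both genotypes, as for EST3 in ten1-31, with a coefficient of variation of 24.7% against 6.24%.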

Other observations

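The genes directly beside the 10 on the chromosome, by the RefSeq R64 annotation of protein-coding genes, were read from the same fit. Of 20 such neighbours, 18 had a row, and 9 of them were called, 3 higher and 6 lower (edgeR, adjusted p under 0.05), beside 50.5% of all rows tested. TOP3, which encodes a DNA topoisomerase, starts 258 bp from EST1 on the opposite strand, so that the genes diverge. TOP3 rose from 24.1 ± 6.09 CPM to 50.8 ± 4.97 CPM in the mutant (SD, n = 3 each; log2 fold change 1.07 ± 0.17 SE; edgeR, adjusted p = 0.00154), in the same direction as EST1. On the other side of EST1, BNA5, an enzyme of NAD synthesis, fell by 0.87 on the log2 scale (edgeR, adjusted p = 0.000214).

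DOT5, a nuclear thiol peroxidase gene that converges with EST3 at a distance of 136 bp, rose from 53.0 ± 1.02 to 99.7 ± 7.46 CPM (SD, n = 3 each; log2 fold change 0.91 ± 0.08 SE; edgeR, adjusted p = 0.000135), while FAA3, on the other side of EST3, was at -0.05 (edgeR, adjusted p = 0.832). Both lie on chromosome IX. Beside RAP1, which did not pass the test, PPN2 (-0.84) and IES2 (-0.36) both fell. Beside EST2, neither TAD3 (0.06) nor BUD6 (0.13) passed the test. RefSeq's neighbours of YKU80 had no row.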
